A study of Homo sapiens with 6 samples.

Results

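The 10 genes described here are the network of MYC, its partner MAX and their antagonists (MYC, MYCN, MYCL, MAX, MXD1, MXD3, MXD4, MXI1, MNT and MLX). They were taken by name from a table of 60612 gene identifiers, and 9 of the 10 passed the filter on low counts. The set was selected on the fold changes of this same contrast, namely a lower MXD3 and a higher MYC, so the members' values are given as a description with no test. RNA sequencing was done on U251, an established human glioma cell line. The knockdown group (TEAD3_KD) holds 3 libraries of U251 cells with TEAD3 knockdown by transient transfection, and the control group (NC, Normal Control) holds 3 libraries of U251 cells. Per the labels' protocols a plasmid vector and an siRNA were both involved, and what the controls received is not given. TEAD3 encodes a DNA-binding factor that works with the coactivators YAP1 and TAZ.

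MYC proteins are helix-loop-helix leucine zipper factors that bind DNA as heterodimers with MAX and activate genes of growth, ribosome production and the cell cycle. MXD proteins, MXI1 and MNT bind the same partner and the same DNA element, the E-box, and recruit SIN3 and histone deacetylase corepressors, so that they oppose MYC. MLX is an alternative partner that joins some MXD proteins, MNT and the glucose-responsive factor MondoA (the product of MLXIP). MYC activity is high in many gliomas, while MXD genes are often expressed in cells that leave the cycle, with MXD3 as an exception that is expressed in proliferating cells.

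Promoter sequences are shown for MXD3, the member with the largest difference, and for the 3 members whose window held the E-box. Each window runs from 250 bases before to 50 bases after a RefSeq start (build GRCh38.p14), 5′ to 3′ on the strand of the gene. Windows were matched by symbol for 9 of the 10 members, all except MYC, 12 windows in all. Capitals mark the E-box CACGTG and the TEAD core GGAATG or its reverse complement CATTCC, searched on both strands, and the letters do not overlap one another here. The MXD3 window lies on the minus strand at chr5:177312703-177313002, the MXD4 window on the minus strand at chr4:2262060-2262359, the MNT window on the minus strand at chr17:2401011-2401310 and the MLX window on the plus strand at chr17:42566850-42567149.
MXD3: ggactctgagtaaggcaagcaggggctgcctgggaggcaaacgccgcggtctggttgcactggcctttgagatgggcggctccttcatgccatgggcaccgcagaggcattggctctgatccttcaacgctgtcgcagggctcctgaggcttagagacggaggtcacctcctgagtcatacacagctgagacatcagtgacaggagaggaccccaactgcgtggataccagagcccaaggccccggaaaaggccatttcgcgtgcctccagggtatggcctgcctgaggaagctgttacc
MXD4: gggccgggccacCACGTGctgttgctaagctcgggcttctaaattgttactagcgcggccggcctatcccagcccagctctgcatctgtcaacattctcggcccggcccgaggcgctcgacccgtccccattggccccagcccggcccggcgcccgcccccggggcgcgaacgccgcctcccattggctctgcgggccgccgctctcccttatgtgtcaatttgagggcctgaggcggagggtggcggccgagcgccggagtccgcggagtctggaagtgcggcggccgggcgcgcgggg
MNT: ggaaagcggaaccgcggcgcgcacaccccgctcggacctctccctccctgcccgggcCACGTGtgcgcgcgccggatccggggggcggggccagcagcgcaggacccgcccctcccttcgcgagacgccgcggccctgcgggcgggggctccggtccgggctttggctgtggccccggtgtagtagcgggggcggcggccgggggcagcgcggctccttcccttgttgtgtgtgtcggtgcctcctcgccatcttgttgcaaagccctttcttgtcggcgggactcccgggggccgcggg
MLX: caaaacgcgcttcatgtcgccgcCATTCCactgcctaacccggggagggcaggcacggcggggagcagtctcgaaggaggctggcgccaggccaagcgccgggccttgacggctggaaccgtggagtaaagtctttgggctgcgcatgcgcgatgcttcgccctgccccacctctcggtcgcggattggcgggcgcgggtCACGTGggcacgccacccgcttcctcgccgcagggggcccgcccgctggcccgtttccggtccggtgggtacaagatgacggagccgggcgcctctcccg
CACGTG was found 238 bases before the start in MXD4, 193 bases before it in MNT and 50 bases before it in MLX. CATTCC was found 227 bases before the start in MLX and 201 bases before it in a window of MXI1. Of the 35116 RefSeq windows of this length, 7.26% held CACGTG and 14.0% held GGAATG on either strand. Neither set of letters was present in the MXD3 window, which covers the start of 1 of the 9 transcripts that GENCODE 29 gives for this gene. A match of letters is a description of the sequence and not a measured binding site.

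The libraries held between 58344026 and 64808615 counts, and 3 counts correspond to 0.0457 to 0.0529 CPM (counts-per-million, normalised by TMM), a limit that covers counting error only. TEAD3 was at 4.70, 8.35 and 6.07 CPM in TEAD3_KD replicates 1 to 3 and at 14.9, 20.3 and 21.0 CPM in NC replicates 1 to 3. This is 34.0% of the control level (95% interval 24.4% to 47.5%, edgeR adjusted p = 0.0114), and it was not called without NC replicate 3, TEAD3_KD replicate 1 or TEAD3_KD replicate 3 (edgeR adjusted p = 0.0541, 0.0532 and 0.0938). The TEAD3 call also ended with no filter on low counts and with a covariate for RNAs without poly(A) (edgeR adjusted p = 0.0639 and 0.0652). The glioma markers VIM, CD44, NES and SOX2 were expressed in every library, with SOX2 at 114 to 134 CPM in TEAD3_KD and 137 to 160 CPM in NC. GFAP and S100B, markers of differentiated astrocytes, were low, with GFAP at 0.375 to 0.796 CPM in TEAD3_KD and 1.25 to 1.80 CPM in NC. None of the 6 glioma markers was called by edgeR, DESeq2 or limma-voom, and 3 were lower when the p was not adjusted (under 0.05, met by 15.6% of all tested genes), namely VIM at a log2 fold change of -0.29, GFAP at -1.34 and SOX2 at -0.27. NES was at 0.00 on this scale, a value whose sign depends on the scaling. The 9 markers of blood, endothelium, epithelium, liver, neurons and oligodendrocytes summed to 127 to 146 CPM in TEAD3_KD and 126 to 156 CPM in NC. CD68, a lysosomal gene that many cell types express, made up nearly all of this. Without it the sums were low and did not overlap between the groups, at 2.33 to 3.49 CPM in TEAD3_KD and 1.84 to 2.13 CPM in NC. CD3E was at 0 in all 6 libraries. Of the 9 markers 5 were tested, CD68 among them. None of these was called by edgeR, by DESeq2, by limma-voom or at an unadjusted p under 0.05. The part of these markers in the members' values was not tested. The 4 tested RNAs without a poly(A) tail were all above 0 on the log2 scale (median 1.08), 3 of them at a p under 0.05 before adjustment (15.6% of all tested genes), and none was called by edgeR, DESeq2 or limma-voom. RN7SL1, for example, lay between 14.4 and 79.8 CPM in TEAD3_KD and between 14.7 and 34.5 CPM in NC, and its sign changed with a covariate for these RNAs. With that covariate the log2 fold change was -0.85 for MXD3 and 0.69 for MYC.

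MXD3 was lower in the knockdown. MXD3 (ENSG00000213347) encodes a MAX-binding repressor on the minus strand of chromosome 5, between 177301461 and 177312757 of GRCh38. It had 16.3, 15.0 and 16.0 CPM in TEAD3_KD replicates 1 to 3, against 33.4, 27.1 and 23.9 CPM in NC replicates 1 to 3. All 3 knockdown libraries lay below all 3 controls and close to each other, while the controls spread more widely, with NC replicate 1 highest. The means were 15.7 ± 0.700 CPM in TEAD3_KD and 28.1 ± 4.84 CPM in NC (SD, n = 3 each), which is 56.0% of the control level (95% interval 45.2% to 69.4%, log2 fold change -0.84 with SE 0.14). In bulk RNA a lower level in each cell and fewer cells that express the gene cannot be told apart.

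**Figure D1:**
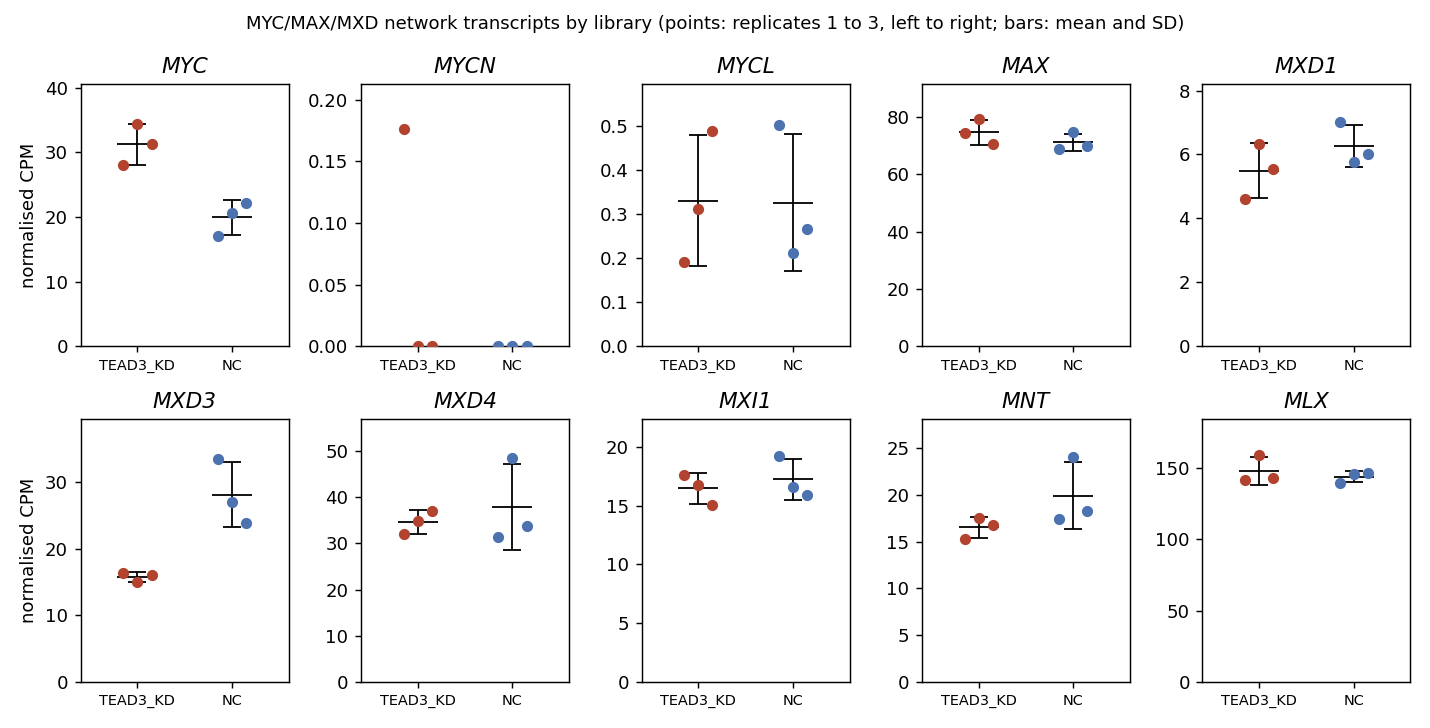
TMM-normalised CPM (vertical axes, each starting at 0) of the 10 members in the 3 TEAD3_KD and the 3 NC libraries, with mean and SD (points only for MYCN). MXD3 lies between 15.0 and 16.3 CPM in TEAD3_KD and between 23.9 and 33.4 CPM in NC, and MYC between 28.0 and 34.4 CPM in TEAD3_KD and between 17.0 and 22.2 CPM in NC.

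Exons of MXD3 overlap those of RAB24 on the same strand over 926 bases and those of PRELID1 on the opposite strand over 1158 bases, so its counts are uncertain if the counting ignored strand or split reads there. RAB24, which encodes a RAB-family small GTPase, was at 28.3 to 31.2 CPM in TEAD3_KD and 28.2 to 31.7 CPM in NC, so the groups overlapped (-0.02 on the log2 scale, edgeR adjusted p = 0.972). PRELID1, which encodes a mitochondrial lipid transfer protein, was at 259 to 299 CPM in TEAD3_KD and 232 to 266 CPM in NC (0.18 on the log2 scale, edgeR adjusted p = 0.427). On the log2 scale neither overlapping gene showed a difference of the size of that in MXD3. In CPM the means of PRELID1 were 278 in TEAD3_KD and 246 in NC, beside 15.7 and 28.1 for MXD3. At that higher level a log2 value cannot show whether reads were shared between PRELID1 and MXD3, and this was not tested. The sign of RAB24 changed in some settings, and that of PRELID1 changed with a correction for transcript length and GC content.

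MYC was higher in the knockdown. MYC (ENSG00000136997), the founding member of the family, is encoded on the plus strand of chromosome 8, between 127735434 and 127741434 of GRCh38. It was at 28.0, 34.4 and 31.2 CPM in TEAD3_KD replicates 1 to 3 and at 17.0, 20.6 and 22.2 CPM in NC replicates 1 to 3. The lowest knockdown library was above the highest control. The means were 31.2 ± 3.22 CPM in TEAD3_KD and 20.0 ± 2.67 CPM in NC (SD, n = 3 each), a 1.57-fold difference (95% interval 1.27 to 1.92, log2 fold change 0.65 with SE 0.14). PVT1, the long non-coding RNA gene downstream of MYC on the same strand and the only tested RNA of a list of 4 around MYC and MYCN, was at 20.8, 17.6 and 22.1 CPM in TEAD3_KD and 13.2, 13.2 and 13.7 CPM in NC. Its groups did not overlap either, with a log2 fold change of 0.59 that was not called by edgeR (adjusted p = 0.0747) or limma-voom and was called by DESeq2.

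MXD3 was the only one of the 9 tested members called by edgeR at an adjusted p under 0.05, where 0.655% of all 17723 tested genes were called and 0.203% were called as lower. MXD3 and MYC were the 2 members whose groups did not overlap, and 21.6% of the 17723 genes had such groups. Since these values chose the members, nothing is read from either count. MXD3 was called without NC replicate 2 or NC replicate 3, where 3.19% and 0.232% of all tested genes were called. It was not called without NC replicate 1 (0.315% of all genes called) or without TEAD3_KD replicate 1, 2 or 3 (0.157%, 0.396% and 0.109%). MXD3 was also called by limma-voom (0.677% of all genes). It was not called with no filter (0.105%), with a replicate block (0.355%), with a covariate for RNAs without poly(A) (0.13%) or at an adjusted p under 0.01 (0.152%). MYC and MXD3 were both called by DESeq2 (4.92% of all genes), with robust dispersions (1.11%), with a stricter filter (1.06%), with a correction for length and GC content (3.18%) and without NC replicate 2, and MYC in no other setting. Their log2 fold changes kept their sign in every setting, between -0.94 and -0.69 for MXD3 and between 0.54 and 0.73 for MYC when 1 library was left out. The smallest size was found without NC replicate 1 in both genes.

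**Figure D2:**
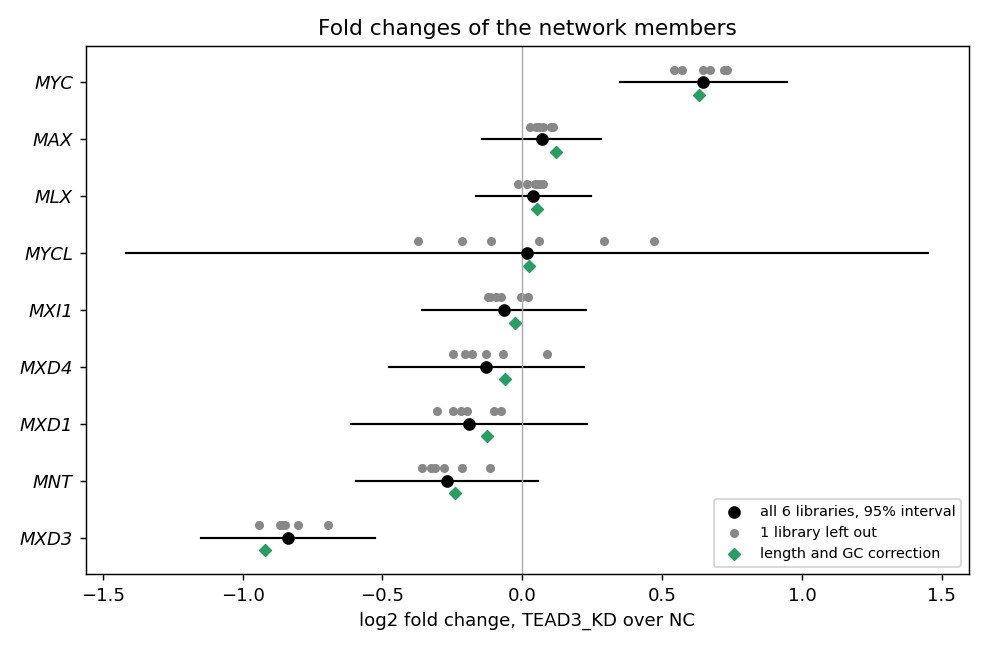
Log2 fold changes, TEAD3_KD over NC (horizontal axis), of the 9 tested members with 95% intervals from the fitted model, values with 1 library left out (grey) and values after correction for transcript length and GC content (green). The intervals of MXD3 (-1.15 to -0.53) and MYC (0.35 to 0.94) do not include 0, and those of the other 7 members do. An interval without 0 equals an unadjusted p under 0.05, which 15.6% of all tested genes met. Since these values chose the members, nothing is read from it.

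The other MYC genes were nearly silent. MYCN, the neural paralog of MYC, had 11, 0 and 0 counts in TEAD3_KD replicates 1 to 3 and 0 in each NC library, so the only reads came from 1 knockdown library and no fold change is given. MYCL was at 0.193, 0.312 and 0.490 CPM in TEAD3_KD and 0.503, 0.211 and 0.266 CPM in NC, which is 12 to 32 and 12 to 33 counts. The groups overlapped fully, and the 95% interval of the fold change ran from 0.374 to 2.74, so that differences within this range are not excluded. Leaving out 1 library moved its log2 fold change between -0.37 and 0.47. MYCNOS, which overlaps MYCN on the opposite strand, was at 0 in all 6 libraries, and MYCL-AS1, opposite MYCL, had reads in TEAD3_KD replicate 2 only.

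The shared partners differed little. MAX, the partner of every MYC and MXD protein, was at 74.5, 79.0 and 70.4 CPM in TEAD3_KD and 68.9, 74.5 and 69.9 CPM in NC, with overlapping groups and a fold change of 1.05 (95% interval 0.906 to 1.22). MLX was at 142, 159 and 143 CPM in TEAD3_KD and 140, 146 and 146 CPM in NC (1.03-fold, 95% interval 0.891 to 1.19). A rise of more than 1.22-fold in MAX and of more than 1.19-fold in MLX lay outside these intervals. Exons of MLX overlap PSMC3IP, a meiotic recombination gene, on the opposite strand over 770 bases. PSMC3IP was at 12.9 to 17.8 CPM in TEAD3_KD and 16.7 to 21.9 CPM in NC (log2 fold change -0.38, edgeR adjusted p = 0.279).

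The remaining antagonists had fold changes a little below 1, with overlapping groups. MNT, the most broadly expressed antagonist in mammalian tissues, was at 15.3, 17.5 and 16.7 CPM in TEAD3_KD and 17.4, 24.0 and 18.3 CPM in NC (log2 fold change -0.27, 95% interval -0.60 to 0.06). MXD4 was at 32.0, 34.9 and 37.1 CPM in TEAD3_KD and 31.4, 48.6 and 33.7 CPM in NC (-0.13, 95% interval -0.48 to 0.22). In both genes NC replicate 2 was the highest of the 6 libraries, and without it the values were -0.11 for MNT and 0.09 for MXD4. MXI1 was at 17.7, 16.8 and 15.1 CPM in TEAD3_KD and 19.3, 16.6 and 15.9 CPM in NC (-0.07, and 0.02 without NC replicate 1). MXD1 was at 4.60, 6.34 and 5.55 CPM in TEAD3_KD and 7.02, 5.78 and 6.02 CPM in NC (-0.19, 95% interval -0.61 to 0.23, and -0.08 without TEAD3_KD replicate 1). SNRNP27, which overlaps MXD1 on the same strand, was at 42.7 to 45.1 CPM in TEAD3_KD and 42.1 to 47.8 CPM in NC, where the groups overlapped (-0.02, edgeR adjusted p = 0.96). The other overlapping features, ENSG00000259118 opposite MAX, ENSG00000228417 opposite MXI1, ENSG00000262456 opposite MNT and the microRNA gene MIR4800 within MXD4, did not exceed 0.168 CPM in every library.

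The libraries differed in their trend with base composition, and the part of this in the members' values was not tested. Across 9994 protein-coding genes, the Spearman correlation of a library's deviations with GC content was -0.14, 0.21 and 0.03 in TEAD3_KD replicates 1 to 3 and -0.59, 0.70 and -0.25 in NC replicates 1 to 3. The longest transcripts of MNT, MXD3 and MXD4 have 61.4%, 61.3% and 57.6% GC, and those of MXI1 and MXD1 have 43.7% and 42.7%. After a correction for length and GC content, MNT was at 16.6, 17.2 and 16.1 CPM in TEAD3_KD and 20.1, 19.9 and 18.9 CPM in NC. Its log2 fold change was -0.24, beside -0.27 before, and it was not called in either. Its groups then did not overlap. Before the correction 21.6% of all tested genes had such groups, and the share after it was not counted. MXD3 was then at 16.0, 14.6 and 15.6 CPM in TEAD3_KD and 38.0, 24.2 and 25.3 CPM in NC (-0.92), with NC replicate 1 further from the other controls than before. MYC was at 27.5, 34.0 and 31.7 CPM in TEAD3_KD and 18.0, 19.5 and 22.8 CPM in NC (0.63). The corrected log2 fold changes of MXD4, MXI1 and MXD1 were -0.06, -0.02 and -0.13.

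Levels of different members were compared as TPM, which divides counts by transcript length and scales them to the same total in each library, using the longest annotated transcript. MLX led at 113 ± 9.74 TPM in TEAD3_KD and 116 ± 5.45 TPM in NC, followed by MAX at 46.6 ± 3.03 TPM in TEAD3_KD and 46.9 ± 0.966 TPM in NC (SD, n = 3 each). In TEAD3_KD libraries the next were MYC at 26.0 ± 3.37 TPM, MXD4 at 16.2 ± 1.69 TPM and MXD3 at 13.6 ± 0.508 TPM. In NC libraries they were MXD3 at 25.8 ± 5.52 TPM, MXD4 at 18.5 ± 3.34 TPM and MYC at 17.5 ± 2.11 TPM. MXD4 did not differ from MYC in NC beyond the spread of the libraries, and its NC range (16.3 to 22.4 TPM) also overlapped that of MXD3 (22.2 to 32.2 TPM). MXI1, MNT and MXD1 came next in both groups, at 9.35 ± 0.534, 6.52 ± 0.624 and 1.94 ± 0.356 TPM in TEAD3_KD and 10.4 ± 1.56, 8.26 ± 0.960 and 2.35 ± 0.378 TPM in NC. The ranges of MXI1 and MNT touched in NC, where MNT reached 9.36 TPM and MXI1 went down to 9.32 TPM. MYCL and MYCN were last, at no more than 0.339 and 0.129 TPM in any library. The middle of this order depended on the length used. With the union of exons MYC led MXD3 and MXD4 in NC as well, at 17.7 TPM against 14.6 and 14.2 TPM, and in TEAD3_KD the levels were 26.2 TPM for MYC, 12.4 TPM for MXD4 and 7.68 TPM for MXD3, which then also lay below MXI1.

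**Figure D3:**
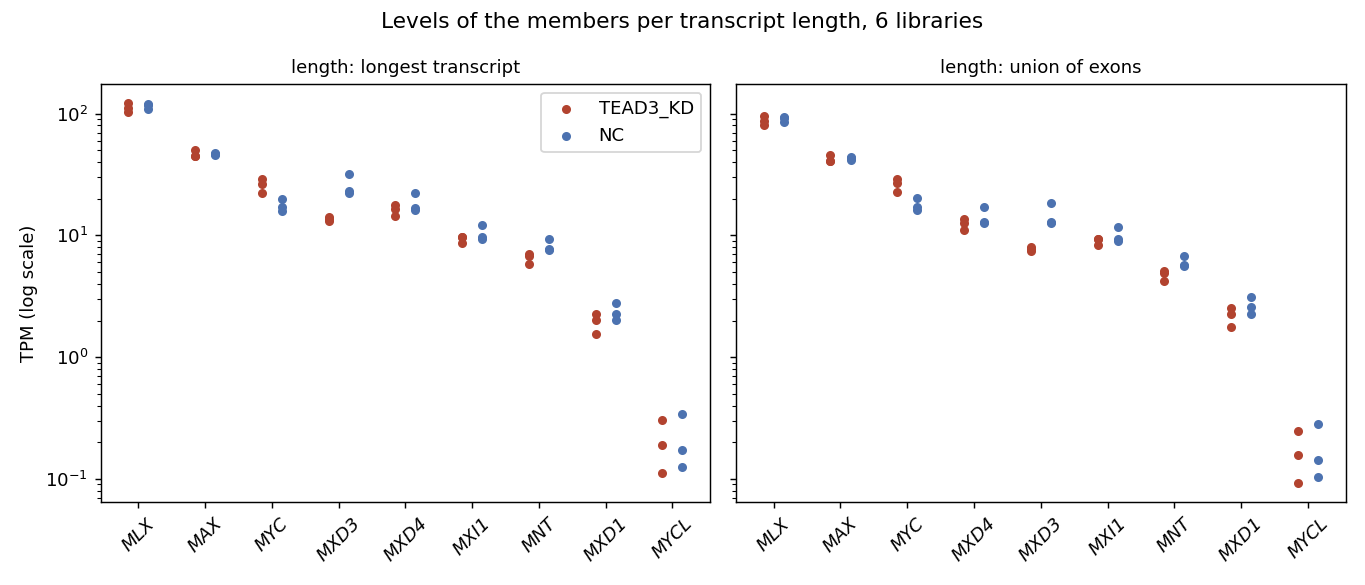
TPM (vertical axis, log scale) of 9 members in the TEAD3_KD and NC libraries, with the longest transcript (left) and the union of exons (right) as gene length. MYCN is left out because 5 of its 6 values are 0, and MLX and MAX lead in every library under both lengths.

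Within each library the balance of MYC and MXD3 differed between the groups. The ratio of MYC counts to MXD3 counts needs no scaling between libraries, but it is not corrected for their trends with base composition. It was 1.72, 2.30 and 1.95 in TEAD3_KD replicates 1 to 3 and 0.509, 0.763 and 0.930 in NC replicates 1 to 3. The 3 knockdown libraries were all above the 3 controls. The side of 1 on which a control lies depends on the gene lengths: as a ratio of TPM with the union of exons it was 3.0, 4.0 and 3.4 in TEAD3_KD and 0.87, 1.3 and 1.6 in NC, so that NC replicates 2 and 3 were above 1. With the longest transcript, the summed TPM of the 5 antagonists MXD1, MXD3, MXD4, MXI1 and MNT was 44.9, 48.5 and 49.3 in TEAD3_KD and 71.0, 66.2 and 58.8 in NC. MXD3 made up 30.2%, 27.0% and 28.7% of that sum in TEAD3_KD and 45.3%, 34.9% and 37.7% in NC. The summed antagonists were 2.00, 1.67 and 1.85 times the MYC level in TEAD3_KD and 4.50, 3.89 and 2.96 times in NC, and MAX was 2.00, 1.72 and 1.69 times the MYC level in TEAD3_KD and 3.04, 2.71 and 2.36 times in NC. With the union of exons the summed antagonists were 1.5, 1.3 and 1.4 times the MYC level in TEAD3_KD and 3.2, 2.8 and 2.2 times in NC. The share of MXD3 in their sum was then 22.6%, 20.0% and 21.5% in TEAD3_KD and 35.6%, 27.1% and 29.1% in NC. These ratios rest on the values that chose the members and carry no test, and transcript ratios are not ratios of protein.

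**Figure D4:**
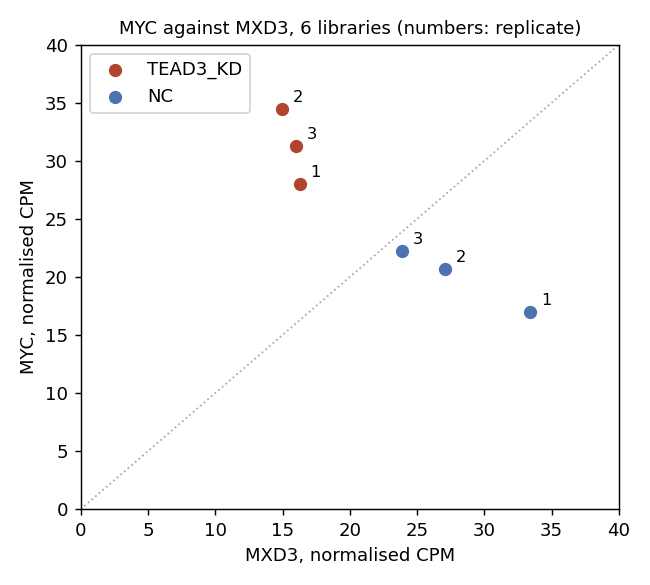
TMM-normalised CPM of MYC (vertical axis) against MXD3 (horizontal axis) in the 6 libraries, with replicate numbers beside the points and a dotted line at equal counts. The 3 TEAD3_KD libraries lie above the line, at ratios of 1.72 to 2.30, and the 3 NC libraries below it, at ratios of 0.509 to 0.930; counts are not divided by gene length here.

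Genes whose products work with the network did not pass the test. Of 4 further dimer partners 3 were tested and none was called by edgeR, DESeq2 or limma-voom or at an unadjusted p under 0.05. MGA, a MAX partner, had a log2 fold change of 0.05, TCFL5 of -0.17 and MLXIP, the MondoA gene, of -0.01 (edgeR adjusted p = 0.917, 0.625 and 0.989), and the signs of MGA and MLXIP changed in some settings. Of 15 genes of MYC coactivator complexes none was called by edgeR, DESeq2 or limma-voom, and 2 were lower at an unadjusted p under 0.05, a rule that 15.6% of all tested genes met. These were ACTL6A, a subunit of chromatin remodelling and acetyltransferase complexes (62.1 ± 3.40 CPM in TEAD3_KD and 73.3 ± 3.41 CPM in NC, edgeR adjusted p = 0.27), and the elongation kinase gene CDK9 (48.3 ± 4.54 CPM in TEAD3_KD and 58.0 ± 5.64 CPM in NC, edgeR adjusted p = 0.304). The acetyltransferase gene KAT5 (0.13) and the helicase gene RUVBL2 (0.11) had the smallest p-values among genes above 0.

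The corepressors of MXD proteins and MNT were likewise not called by edgeR or limma-voom, while 1 of 16 was higher and 3 were lower both by DESeq2 (4.92% of all tested genes called) and by a p under 0.05 before adjustment (15.6% of all tested genes). SIN3A, the scaffold that binds MXD proteins directly, was at 38.5 ± 3.32 CPM in TEAD3_KD and 50.4 ± 3.85 CPM in NC (log2 fold change -0.39, edgeR adjusted p = 0.143). RBBP4, a histone-binding subunit of the SIN3 complex, was at 281 ± 20.5 CPM in TEAD3_KD and 354 ± 27.7 CPM in NC (-0.33, edgeR adjusted p = 0.16). BRMS1, another SIN3 complex subunit, was at 78.0 ± 3.35 CPM in TEAD3_KD and 62.2 ± 4.53 CPM in NC (0.33, edgeR adjusted p = 0.16), and ARID4B, also of this complex, differed by 0.21 on the log2 scale (edgeR adjusted p = 0.474). Of 14 genes that act on MYC protein turnover, none was called by edgeR, DESeq2 or limma-voom and 3 were lower at an unadjusted p under 0.05, beside the same 15.6%. USP28, a deubiquitinase of MYC, was at 38.6 ± 2.96 CPM in TEAD3_KD and 47.5 ± 2.13 CPM in NC (edgeR adjusted p = 0.213). SKP2, which encodes an F-box protein that targets MYC, was at 22.6 ± 1.22 CPM in TEAD3_KD and 27.3 ± 0.785 CPM in NC (edgeR adjusted p = 0.265). The ubiquitin ligase gene STUB1 (0.22) and the deubiquitinase gene USP36 (0.25) had the smallest p-values among genes above 0.

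Of 65 listed MYC-activated targets, all tested, 1 rose and none fell at the threshold that 0.655% of all tested genes passed. The gene that rose was DUSP2, which encodes a nuclear phosphatase of MAP kinases and not a growth or ribosome factor. It was at 5.29, 3.32 and 6.03 CPM in TEAD3_KD and 1.80, 1.85 and 1.88 CPM in NC (log2 fold change 1.40, SE 0.26, edgeR adjusted p = 0.0367). DUSP2 was not called without NC replicate 1, NC replicate 3, TEAD3_KD replicate 1 or TEAD3_KD replicate 3 (edgeR adjusted p = 0.119, 0.143, 0.166 and 0.225). Its call also ended by limma-voom (adjusted p = 0.0644) and in edgeR with no filter, with the replicate block and with the covariate for RNAs without poly(A) (adjusted p = 0.125, 0.0878 and 0.303). The fold change was above 0 for 52 of the 65 targets, and for 49.8% of all tested genes. The list median was 0.11 beside -0.00 over all tested genes, 0.10 beside -0.02 with the length and GC correction, and between 0.10 and 0.15, with 47 to 51 targets above 0, when 1 library was left out. Before that correction the coactivator, corepressor and turnover lists leaned the other way. Below 0 were 12 of 15 coactivator genes, 11 of 16 corepressor genes and 10 of 14 turnover genes (medians -0.10, -0.09 and -0.05). With the correction their medians were -0.10, -0.03 and -0.04. Above 0 were then 4 of 15, 7 of 16 and 5 of 14 of them, and 48 of 65 activated targets. When 1 library was left out, 2 to 4 coactivator, 5 to 7 corepressor and 3 to 7 turnover genes were above 0. The cause of these leans was not tested. Without adjustment 12 targets were higher and 5 lower (p under 0.05, 15.6% of all tested genes), limma-voom called none, and DESeq2 called 7 higher and 2 lower where it called 4.92% of all tested genes. NOP16, a ribosome assembly gene, was at 40.3 ± 1.67 CPM in TEAD3_KD and 30.1 ± 1.09 CPM in NC (0.42, edgeR adjusted p = 0.0978), and WDR74, also of ribosome assembly, was at 45.1 ± 1.51 CPM in TEAD3_KD and 33.7 ± 2.06 CPM in NC (0.42, 0.0995). TMEM97, a sterol-responsive membrane protein gene, was at 30.9 ± 0.594 CPM in TEAD3_KD and 40.5 ± 0.582 CPM in NC (-0.39, edgeR adjusted p = 0.108), and MCM4, a subunit of the replicative helicase, was at 99.2 ± 13.6 CPM in TEAD3_KD and 130 ± 9.42 CPM in NC (-0.39, 0.156).

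**Figure D5:**
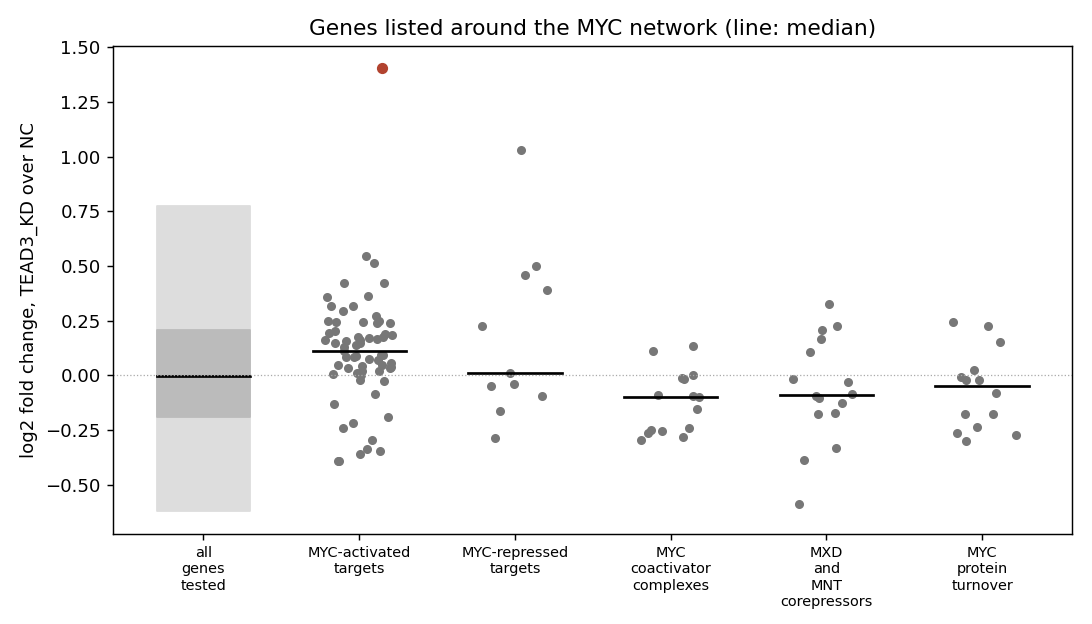
Log2 fold changes, TEAD3_KD over NC (vertical axis), of genes in 5 lists, with the list median as a line and the called gene DUSP2 in red; for all tested genes the bars span the middle 50% and 90%. The median of the MYC-activated targets is 0.11 and that of all tested genes is -0.00.

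Genes that MYC represses were not called in either direction by edgeR or limma-voom. Of 13 listed, 11 were tested, DESeq2 called 3 as higher and none as lower (4.92% of all tested genes called), and a p under 0.05 before adjustment was reached by 3 above 0 and 1 below it (15.6% of all tested genes). Their median was 0.01, with 6 above 0. GAS1, a growth arrest gene, was at 5.33, 4.39 and 3.50 CPM in TEAD3_KD and 2.03, 2.18 and 2.26 CPM in NC (1.03, edgeR adjusted p = 0.0754). GADD45A, a growth arrest and DNA damage gene, was at 23.2 ± 2.31 CPM in TEAD3_KD and 16.4 ± 0.691 CPM in NC (0.50, edgeR adjusted p = 0.101). The cyclin-dependent kinase inhibitor genes CDKN1B and CDKN1A had log2 fold changes of -0.29 and -0.16 (edgeR adjusted p = 0.279 and 0.561). The 3 listed targets of MLX and MondoA were above 0, as were 49.8% of all tested genes, and none was called by edgeR or limma-voom. Of these targets 1 was higher by DESeq2 (4.92% of all tested genes called) and at an unadjusted p under 0.05 (15.6% of all tested genes). That gene, ARRDC4, which encodes an arrestin-related protein, was at 6.38, 5.40 and 8.48 CPM in TEAD3_KD and 3.84, 3.82 and 3.53 CPM in NC (0.86, edgeR adjusted p = 0.1). TXNIP, a regulator of glucose uptake, was at 1068, 964 and 1174 CPM in TEAD3_KD and 809, 1132 and 624 CPM in NC, where the groups overlapped (0.32, edgeR adjusted p = 0.424).

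Among 10357 genes compared, those whose levels over the 6 libraries ran closest to those of MXD3 were CHRDL1, KIAA0232 and UXS1, with a Pearson r of log2 CPM of 0.995, 0.989 and 0.988. The genes closest to MYC were DDX49, TFEB and MT1X, with an r of 0.995, 0.983 and 0.983. For MXD3 45 genes, and for MYC 35 genes, had an r of at least 0.95, and over 6 libraries that share their group difference such values say little about any 1 gene. Of these 6 genes MT1X, a metallothionein gene, was called by edgeR, at 53.4, 57.1 and 56.1 CPM in TEAD3_KD and 26.4, 35.0 and 36.9 CPM in NC (log2 fold change 0.76, adjusted p = 0.0296), and it was also called without NC replicate 2, while leaving out any other single library ended the call (edgeR adjusted p of 0.062 to 0.185), as did no filter on low counts and the covariate for RNAs without poly(A) (0.100 and 0.18). CHRDL1, which encodes a BMP antagonist, was at 20.6 ± 0.291 CPM in TEAD3_KD and 25.9 ± 2.15 CPM in NC (-0.33, edgeR adjusted p = 0.202). The other 4 had log2 fold changes of -0.38 for KIAA0232, -0.36 for UXS1, 0.28 for DDX49 and 0.32 for TFEB.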

How the data were processed

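The authors deposited unscaled whole-number counts per Ensembl gene for 6 libraries. The submitters' processing notes name GRCh38, HISAT2 2.0.4, StringTie 1.3.4d, cutadapt 1.9, edgeR and DESeq2. The tool that wrote the counts, its annotation and its strand setting are not stated there. Per the labels' protocols, poly(A) RNA was captured and strand-marked libraries were made. The labels do not say that replicates came from separate cultures, so p-values reflect the spread among 6 libraries that may be technical replicates.

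Here all genes were fitted with edgeR 4.0.16 (quasi-likelihood F test, two-sided, TMM, group as the only term, Benjamini-Hochberg adjustment, in R 4.3.3). The filterByExpr minimum of 10 counts left 17723 of 29520 genes with a count. Called means an adjusted p under 0.05. CPM is TMM-normalised, and fold changes are TEAD3_KD over NC. TPM used lengths from GENCODE 29 and covers its genes. The length and GC correction was a loess per library (span 0.3). DESeq2 1.42.0, limma 3.58.1 (voom) and the settings in the closing section were alternatives. On simulated data the procedure called 28.4% of 1.5-fold, 73.1% of 2-fold and 92.4% of 4-fold changes. A gene that was not called may therefore still differ. The members and lists were chosen with earlier results of these data known. Genes named besides members are, per list, up to 3 called genes and otherwise up to 2 with the smallest p in each direction, genes overlapping a member, and the 3 genes most like MXD3 and MYC. Every pair of libraries differed by more than counting error (a chi-square of at least 22.7 times its degrees of freedom).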

Additional observations from a re-analysis of the deposited data

How the results depend on the processing

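Of 152 values of the 9 tested members under alternatives, all moved by less than the SD between replicates. Leaving out 1 library can hardly move a group mean by that much, so this outcome was largely fixed in advance and is no measure of stability. The values of MXD4, MXI1, MLX and MYCL, which lie near 0, changed sign in some settings. Genes called numbered 116 (80 higher and 36 lower). They numbered 31 with no filter on low counts, 872 by DESeq2 (384 lower, 488 higher), 564 with the length and GC correction (292 lower, 272 higher), 197 with robust dispersions, 23 with the covariate for RNAs without poly(A), 27 at an adjusted p under 0.01, and 20 to 589 when 1 library was left out (259 higher and 330 lower without NC replicate 2). Members called numbered 2 with the stricter filter, with the length and GC correction, by DESeq2 and with robust dispersions, 0 with no filter, with the covariate and at 0.01, and 0 to 2 when 1 library was left out. Activated targets called numbered 9 by DESeq2, 8 with the length and GC correction, 0 with no filter, by limma-voom, with the covariate and at 0.01, and 0 to 6 when 1 library was left out. The cause was not tested for any of these.

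No pairing of samples with the same number was seen: their deviations correlated at -0.10, -0.21 and -0.15 for numbers 1 to 3, and no library correlated best with its own number. The deviations were centred within each group, so this check cannot exclude a pairing. With the replicate block 63 genes, 0 members and 0 activated targets were called.

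Named genes near 0 changed sign. With the length and GC correction the log2 fold change was 0.075 for MLXIP and -0.012 for PRELID1. MLXIP was at 0.00031 with upper-quartile scaling and 0.00032 by limma-voom, and NES was at -0.0012 with library size alone. With the covariate NES was at -0.19, RN7SL1 at -0.090, SNRNP27 at 0.029 and RAB24 at 0.00073. When 1 library was left out the values ran between -0.062 and 0.12 for MGA, -0.089 and 0.087 for MLXIP, -0.088 and 0.18 for NES, -0.13 and 0.036 for CD68, -0.057 and 0.038 for SNRNP27, and -0.067 and 0.022 for RAB24.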
